A study of Mus musculus with 2 samples.

Results

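The unfolded protein response and the integrated stress response were followed through 33 genes, chosen by symbol from the 50508 genes of the deposited expression table, and all 33 were found. They fall into 16 genes of endoplasmic reticulum (ER) chaperones, foldases and their partners, 6 genes of stress sensors, kinases and the transcription factor XBP1, and 11 genes of the branch controlled by the transcription factors ATF4 and CHOP. RNA came from the E14 line of mouse embryonic stem cells (strain 129/Ola) at passages 15 to 18. The cells were kept undifferentiated on gelatin with 15% serum and leukemia inhibitory factor (LIF) at 1000 U/ml, and were transfected with either scramble siRNA or Mettl8 siRNA and collected after 72 h. The study's title concerns Mettl8 as a STAT3 target acting on differentiation and the JNK pathway. Each group has 1 library. Although the series record speaks of triplicates, the table has 1 column per group, and whether cultures were pooled in it is not stated in the labels. No difference below can therefore be set against a replicate spread, and no test between the groups was made.

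Proteins that enter the ER are folded there by chaperones and by disulfide isomerases. When unfolded protein builds up, 3 sensors in the ER membrane respond. IRE1 splices Xbp1 mRNA, ATF6 is cut to release a transcription factor, and PERK phosphorylates the translation factor eIF2. The spliced XBP1 protein and the ATF6 fragment raise transcription of chaperone genes. Phosphorylated eIF2 lowers general translation but lets ATF4 be made, and this arm, which other kinases can also start, is called the integrated stress response. ATF4 and CHOP switch on genes of amino acid supply, growth control and, under lasting stress, cell death. Gene-level transcript values hold no measure of Xbp1 splicing, ATF6 cleavage, eIF2 phosphorylation or ATF4 translation.

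Values are FPKM, fragment counts scaled by gene length and sequencing depth, and are given first for the library labelled scramble siRNA and then for the library labelled Mettl8 siRNA. Mettl8 itself stood at 0.67 FPKM (exact Poisson interval 0.551 to 0.812) and 100.3 FPKM (98.8 to 101.9), so the targeted gene goes against the label of the siRNA library. Higher and lower mean higher and lower in the library labelled Mettl8 siRNA, whatever its cells received. Whole reads could be rebuilt from the FPKM steps: the table holds 22213690 reads for scramble siRNA and 21418615 for Mettl8 siRNA. All 8 embryonic stem cell markers were measured, from Klf4 at 20.1 and 17.5 FPKM to Dppa5a at 578 and 564. As deposited 7 of the 8 were lower and Pou5f1 was higher, with a median difference of -0.048 on the log2(FPKM + 1) scale. A counting interval of the ratio below 1 was seen for 5. Over all genes with a mean of at least 1 FPKM, 45% were lower and 7.85% had such an interval. Among protein-coding genes with a mean of at least 40 FPKM, which all markers but Klf4 reached, 20.1% had one. The markers were not rescaled to the same FPKM sum, as the groups below were. Their part in the differences below was not tested. Of 8 fibroblast and 8 endoderm markers, 0 reached a mean of 1 FPKM, and their summed levels were 1.21 and 1.09 FPKM for fibroblasts and 1.04 and 1.34 FPKM for endoderm, with Col3a1, Lum and Ttr listed at 0 in the first library. Of 6 trophectoderm markers, Krt8 (2.45 and 2.47 FPKM) and Krt18 (3.11 and 2.80) reached it, and Cdx2, Hand1 and Elf5 were below 0.1 FPKM in both.

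Short stress elements were searched in the promoters and are shown first, because the comparison of the branches follows the division between genes driven by ATF6 or XBP1 and genes driven by ATF4. RefSeq promoter windows of 300 bases, 250 before and 50 after the transcription start (GRCm38.p6), were found for 30 of the 33 genes. Hyou1, Manf and Atf6 were not searched. Each window was searched on both strands for the ER stress response element ERSE (CCAAT, any 9 bases, CCACG), for ERSE-II (ATTGG, any 1 base, CCACG), for the XBP1-type element UPRE (TGACGTGG) and for the core of the CHOP-ATF4 element CARE (TGATGNAA). No match of one motif overlapped a match of another in these windows. A match describes letters only and is not a measured binding site. These elements are known from genes of these same pathways, so the shares of matches below describe the windows and are no test of the division.

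ERSE was matched in 7 of the 14 chaperone genes with a window, against 0.137% of all 27025 genes with one. ERSE-II was matched in 2 of the 14, against 0.0444%. None of the windows of the other 2 role groups held either. The ERSE matches are printed 5′ to 3′ on the strand that reads CCAAT first, with the match in capitals and 9 bases on each side, so that the fixed ends and the free spacer can be compared.
Hspa5 (chr2:34772016-34772052, + strand): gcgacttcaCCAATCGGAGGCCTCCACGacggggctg
Hsp90b1 upstream match (chr10:86705629-86705665, - strand): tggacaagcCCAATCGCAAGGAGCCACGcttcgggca
Hsp90b1 nearer match (chr10:86705524-86705560, + strand): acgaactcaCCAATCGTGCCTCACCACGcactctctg
Calr (chr8:84847066-84847102, + strand): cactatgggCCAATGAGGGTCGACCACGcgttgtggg
Canx (chr11:50325791-50325827, - strand): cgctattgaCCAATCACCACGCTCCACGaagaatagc
Pdia6 (chr12:17266482-17266518, + strand): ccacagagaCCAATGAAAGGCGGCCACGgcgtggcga
Dnajc3 (chr14:118937818-118937854, + strand): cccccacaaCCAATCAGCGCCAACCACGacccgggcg
Creld2 (chr15:88819511-88819547, - strand): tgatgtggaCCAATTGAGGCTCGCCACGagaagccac
The ERSE-II matches, in the same layout, stand in the ER degradation gene Herpud1 and the co-chaperone gene Dnajb11.
Herpud1 (chr8:94386368-94386396, + strand): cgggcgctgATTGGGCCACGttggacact
Dnajb11 (chr16:22857843-22857871, + strand): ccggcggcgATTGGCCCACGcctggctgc

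The Hspa5 promoter is given in full because Hspa5 had the largest difference of the chaperone genes. The stretch runs from base -250 to base -1 (chr2:34771840-34772089, + strand), with the ERSE match in capitals at bases -65 to -47. Bases are counted from the RefSeq start. The GENCODE gene begins at chr2:34771970, inside this stretch and before the match. Hspa5: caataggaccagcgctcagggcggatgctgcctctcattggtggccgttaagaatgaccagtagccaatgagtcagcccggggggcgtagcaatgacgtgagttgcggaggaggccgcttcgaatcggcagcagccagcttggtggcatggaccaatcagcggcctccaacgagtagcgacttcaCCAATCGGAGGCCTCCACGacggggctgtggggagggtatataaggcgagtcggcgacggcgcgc

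CARE was matched in 4 of the 11 genes of the ATF4 and CHOP branch and in 1 of the 14 chaperone genes with a window. Of all genes with a window, 4.51% held a match. The matches stood in Atf3, Chac1, Trib3 and Asns and, among the chaperone group, in Herpud1, the only member with both an ERSE-type and a CARE match. UPRE, held by 0.714% of all genes with a window, was matched in 0 of the 30 members with one. The CARE matches are printed on the strand that reads TGATG first, again with 9 bases on each side.
Atf3 (chr1:191183427-191183452, + strand): cggacttggTGATGCAAgtgcgagaa
Chac1 (chr2:119351040-119351065, - strand): tggcaggagTGATGCAAcggcaggga
Trib3 (chr2:152344030-152344055, + strand): ccgcccggcTGATGTAAacctgagct
Asns (chr6:7693216-7693241, - strand): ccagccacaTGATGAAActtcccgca
Herpud1 (chr8:94386308-94386333, - strand): ggtgcgggcTGATGCAAcccgccgtg

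**Figure D1:**
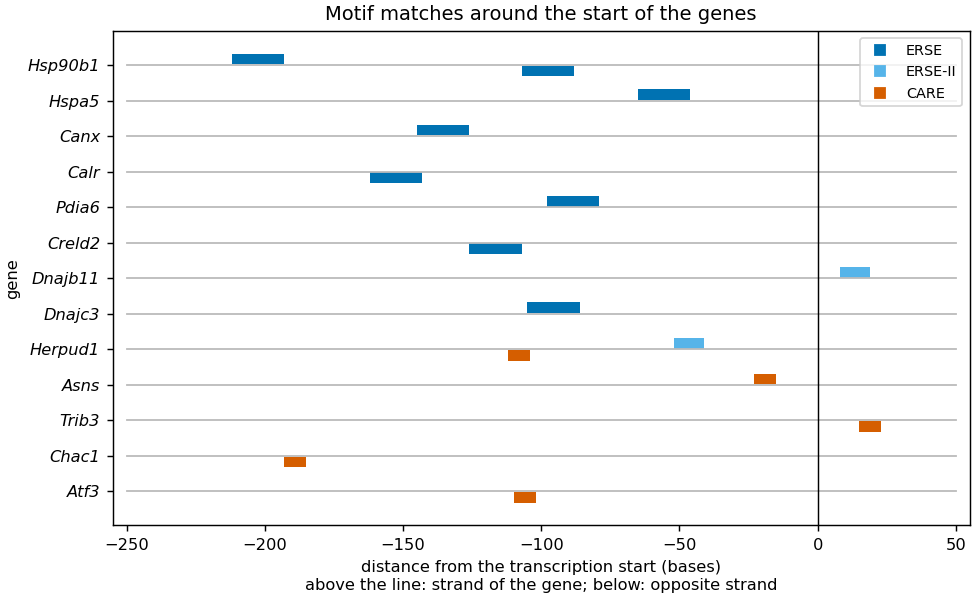
Position of each ERSE, ERSE-II and CARE match relative to the RefSeq transcription start (x axis, bases) in the 13 genes with a match (y axis). Bars above a line lie on the strand of the gene and bars below it on the opposite strand. ERSE matches lie between bases -212 and -47, all before the RefSeq start. The ERSE-II match of Dnajb11 (8 to 18) and the CARE match of Trib3 (15 to 22) lie after it. GENCODE gene bounds differ: by them the matches of Hspa5, Atf3 and Asns lie inside the gene, and that of Trib3 before the gene.

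Levels of the 33 genes spanned a wide range, and the order was nearly the same in both libraries. In the chaperone group the most abundant transcripts were Hsp90b1 at 117 and 125 FPKM, P4hb at 109 and 115, and Hspa5 at 102 and 117. Hsp90b1 encodes GRP94, the HSP90 of the ER, P4hb the protein disulfide isomerase PDI, and Hspa5 the HSP70-type chaperone BiP. Among the 21490 protein-coding genes of the table these 3 ranked 133, 147 and 164 in the library labelled scramble siRNA and 125, 145 and 138 in the other. The lectin chaperones calnexin (Canx, 75.7 and 78.8 FPKM) and calreticulin (Calr, 73.4 and 83.1) and the isomerase gene Pdia3 (76.6 and 81.3), whose protein works with both, lay close together. Calr exceeded Canx in the library labelled Mettl8 siRNA only, and in the other library the counting intervals of Pdia3 and Canx and of Canx and Calr overlapped.

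The remaining chaperone genes were less abundant in both libraries. Pdia4 stood at 52.7 and 55.6 FPKM and Pdia6 at 47.4 and 50.7, both encoding disulfide isomerases. Creld2, a secreted ER stress protein with isomerase activity, was at 33.7 and 32.4, and Hyou1, a large HSP70-like exchange factor of BiP, at 32.2 and 33.1. These were followed by Sdf2l1 (14.2 and 13.5), an ER stress-induced partner of ERdj3, and Manf (12.1 and 13.1), which encodes a secreted survival factor of the ER. The J-domain co-chaperones of BiP were Dnajb11, which encodes ERdj3 (10.3 and 10.6), Dnajc3 (7.37 and 7.88) and Dnajb9 (3.96 and 4.12). Herpud1, of the ER degradation complex, was at 4.67 and 5.04. Of the 15 pairs of neighbours in this order, 4 had overlapping counting intervals in the library labelled scramble siRNA, and 12 kept their order in the library labelled Mettl8 siRNA.

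**Figure D2:**
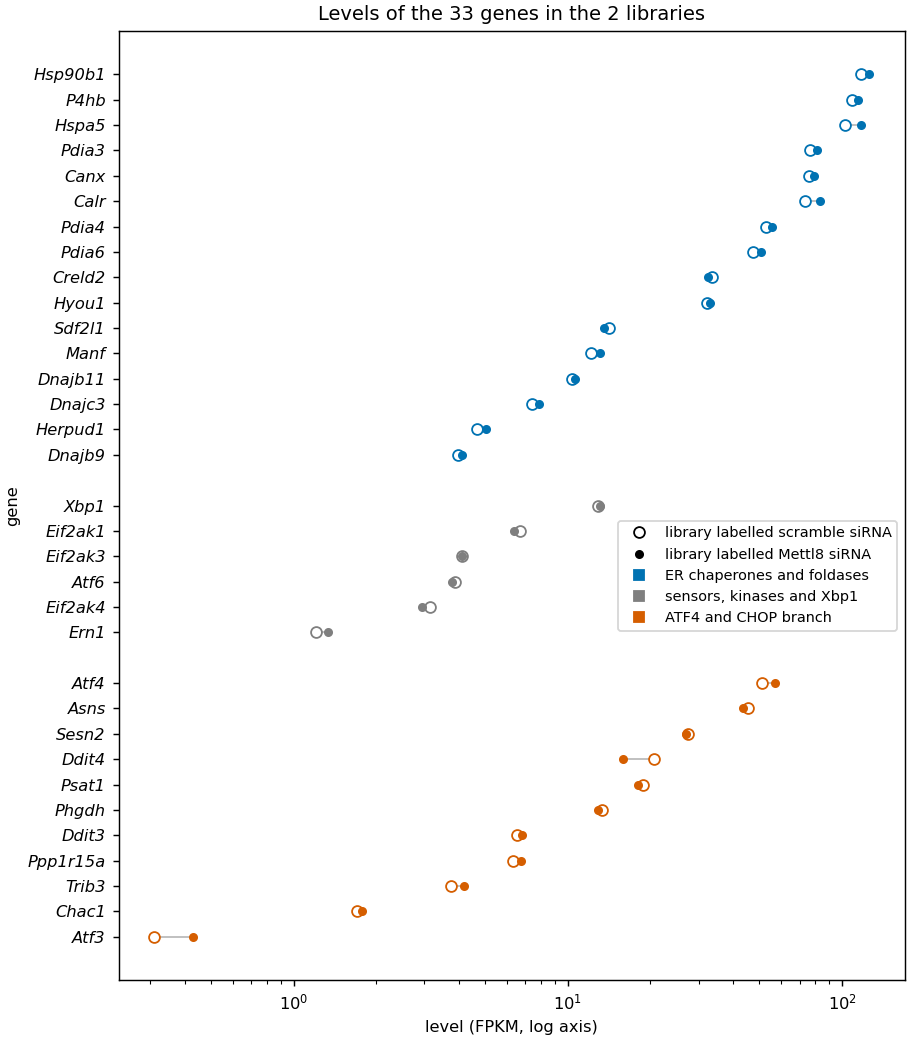
Level of each of the 33 genes (x axis, FPKM, log scale) in the library labelled scramble siRNA (open circles) and the library labelled Mettl8 siRNA (filled circles), ordered within the 3 role groups. The 2 circles of a gene lie close together throughout, from Atf3 at 0.31 and 0.43 FPKM to Hsp90b1 at 117 and 125 FPKM, and Ddit4 shows the widest gap among genes above 1 FPKM.

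Between the libraries, chaperone transcripts were higher by a few percent in the library labelled Mettl8 siRNA. Of the 16 genes, all of which had a mean of at least 1 FPKM, 14 were higher and 2 lower, where 54.1% of the 13243 genes at this level were higher and 45% lower. The median difference was 0.080 on the log2(FPKM + 1) scale, against 0.013 over all genes. Summed over the group, the level was 773 and 826 FPKM, a ratio of 1.07. The scale adds 1 FPKM before the logarithm and understates the change of low genes. Both genes on the lower side, Sdf2l1 at -0.062 and Creld2 at -0.056, turned positive when the libraries were rescaled to the same FPKM sum, which moved the median of all genes to 0.089. Relative to the median of all genes, 14 of the 16 stood above it with and without that rescaling.

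Hspa5 led the group (chr2:34771970-34777547, + strand, GRCm38). Its level was 102 FPKM from 12322 reads for scramble siRNA and 117 FPKM from 13757 reads in the other. The ratio was 1.14, with an exact Clopper-Pearson counting interval of 1.12 to 1.17. Calr (chr8:84841850-84846934, - strand) stood at 73.4 and 83.1 FPKM, a ratio of 1.13 (1.09 to 1.17). These 2 were the only chaperone genes at least 1.1-fold higher on the log2(FPKM + 1) scale, and 0 were 1.1-fold lower. Manf came next by log2 difference, at 0.099 with a ratio of 1.08 (0.994 to 1.17), and then Pdia6, at 0.096 with a ratio of 1.07 (1.03 to 1.11). For Manf the interval holds 1, so its difference was not detectable at this depth.

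Counting error alone was small for the abundant chaperones. The counting interval of the ratio lay wholly above 1 for 8 of the 16 genes and wholly below 1 for 0, where 11.6% of all genes lay above and 7.85% below. The 8 were Hspa5, Hsp90b1, Calr, Canx, Pdia3, Pdia4, Pdia6 and P4hb, which are the 8 chaperone genes with a mean of at least 40 FPKM. Abundant genes give narrow intervals, so the background rises with level. Of the 538 protein-coding genes with a mean of at least 40 FPKM, 36.1% had an interval above 1 and 20.1% below it, 60.8% were higher, and their median difference was 0.031. The 8 abundant chaperones ranged from 0.057 for Canx to 0.19 for Hspa5, with a median of 0.090. These intervals cover counting error only, since the reads carry no molecular identifiers and need not be independent molecules, and variation between cultures was not measured.

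Genes with and without an ERSE-type match did not separate. The 9 chaperone genes with an ERSE or ERSE-II match had a median difference of 0.091, with 8 higher, and the 5 with a window but no match (Pdia3, Pdia4, P4hb, Dnajb9 and Sdf2l1) one of 0.075, with 4 higher. Outside the 33 genes, 40 other genes had an ERSE or ERSE-II match. Of the 15 that reached a mean of 1 FPKM, 7 were higher and 8 lower as deposited, and their median of -0.013 lies below that of all genes. Among these 15 were the ER degradation genes Syvn1 (2.81 and 3.21 FPKM) and Derl3 (5.76 and 4.38), picked after their values were seen.

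**Figure D3:**
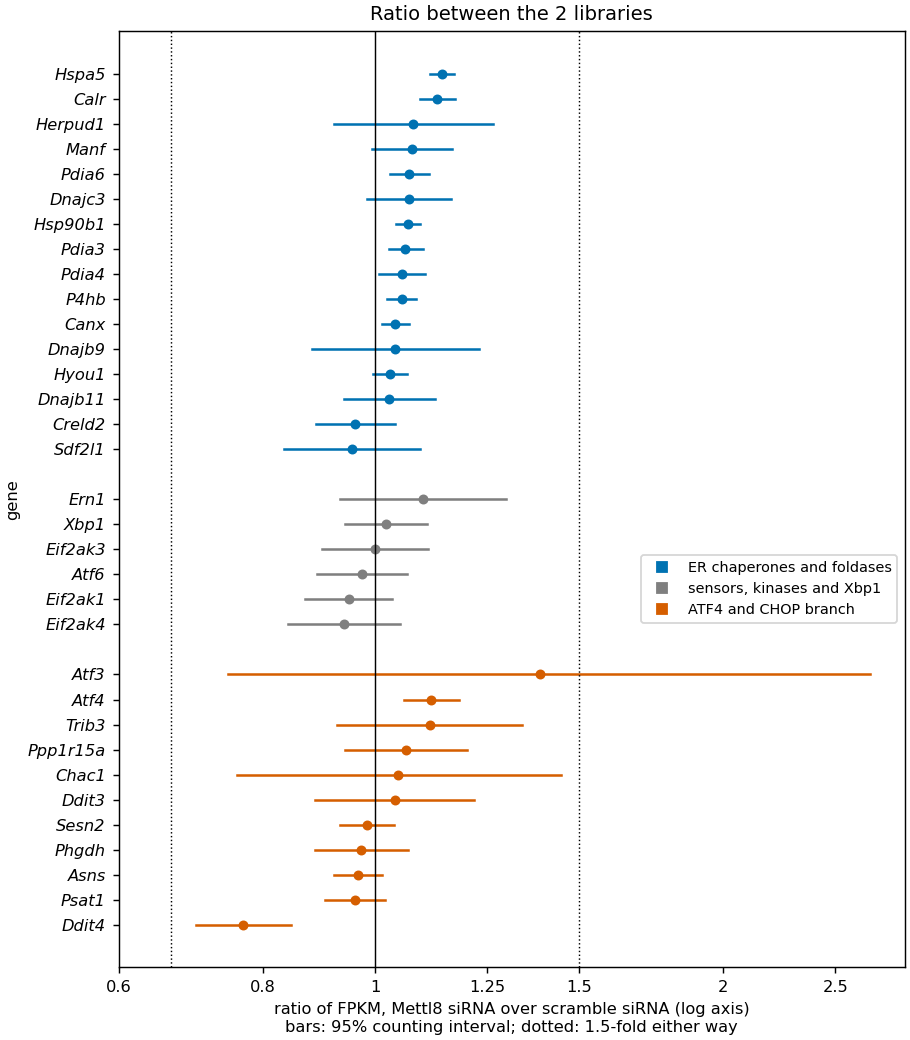
Ratio of FPKM between the library labelled Mettl8 siRNA and the library labelled scramble siRNA (x axis, log scale) for each of the 33 genes, with bars for the 95% counting interval and dotted lines at 1.5-fold. The bars of 8 abundant chaperone genes and of Atf4 lie above 1 and that of Ddit4 below 1, while the other 23 bars cross 1.

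Sensor, kinase and Xbp1 transcripts differed little between the libraries. Of the 6 genes, 2 were higher, 3 lower and Eif2ak3 was equal as deposited, where 54.1% of all genes were higher and 45% lower. All 6 were higher when the libraries were rescaled to the same FPKM sum, which raised the median of all genes as well. The median difference was -0.015 as deposited and 0.060 after that rescaling, below the 0.013 and 0.089 of all genes. Every counting interval in this group held 1. Xbp1, whose spliced form encodes the transcription factor, was at 12.9 and 13.2 FPKM, a ratio of 1.02 (0.942 to 1.11). The sensor gene Atf6 was at 3.89 and 3.79 FPKM, with a ratio of 0.974 (0.891 to 1.06). Ern1, which encodes the sensor IRE1, was the lowest of the group at 1.21 and 1.33 FPKM, and its ratio was 1.099 (0.932 to 1.30).

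The kinases of eIF2 were all expressed. Eif2ak1, which encodes the heme-regulated kinase HRI, was the most abundant at 6.69 and 6.35 FPKM, a ratio of 0.949 (0.870 to 1.04). Eif2ak3, which encodes PERK, was at 4.10 FPKM in both libraries, and the interval of its ratio was 0.899 to 1.11, so that differences within these bounds were not detectable. Eif2ak4, which encodes GCN2, the sensor of uncharged transfer RNA, was at 3.14 and 2.95 FPKM, with a ratio of 0.940 (0.841 to 1.05). Exons of Eif2ak1 share 487 bases with Aimp2 on the opposite strand, 8.59% of its exon length, and the strand setting of the counting is not given in the sources used here.

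**Figure D4:**
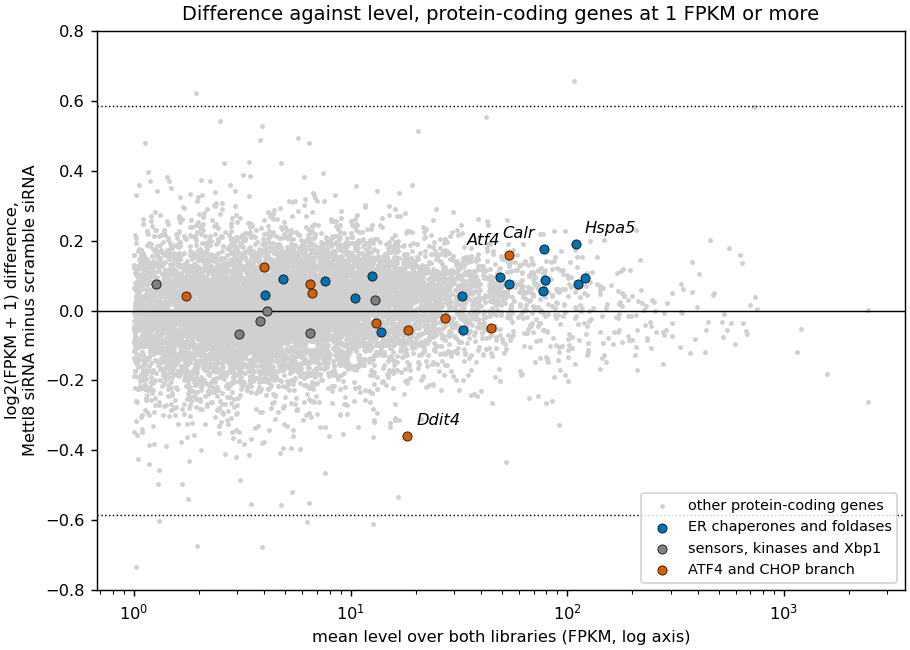
Difference on the log2(FPKM + 1) scale (y axis, library labelled Mettl8 siRNA minus library labelled scramble siRNA) against mean level (x axis, FPKM, log scale) for protein-coding genes with a mean of at least 1 FPKM, with 32 of the 33 genes coloured by role. Mettl8 is left out and 1 further gene lies beyond the axis limit of 0.8. The coloured points lie within the cloud of other genes, the abundant chaperones on its upper side and Ddit4 near its lower edge.

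The ATF4 and CHOP branch was split. Of its 11 genes 10 had a mean of at least 1 FPKM, 5 of them higher and 5 lower, and the median was 0.0098, close to the 0.013 of all genes. Rescaled to the same FPKM sum, 9 of the 10 were higher, but 5 of the 10 stood above the median of all genes with and without that rescaling. The summed level of the 11 genes was 195.0 and 194.5 FPKM. By abundance the branch parted too: of the 6 genes with a mean of at least 10 FPKM, only Atf4 was higher as deposited and only Ddit4 lower after that rescaling. Of 2882 protein-coding genes at that level, 63.2% were higher as deposited.

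The transcription factors of the branch were on the higher side. Atf4 (chr15:80255184-80257541, + strand), the factor that drives the integrated stress response, was at 51.0 FPKM from 2501 reads and 57.0 FPKM from 2733 reads. These values rest on a deposited length of 1724 bases, against 2358 bases for the gene model at these coordinates. The ratio of Atf4 was 1.12 (1.06 to 1.18), and it was the only gene of the branch whose counting interval lay above 1. Ddit3, which encodes CHOP, was at 6.52 and 6.78 FPKM with a ratio of 1.04 (0.887 to 1.22). Its exons share 68 bases, 3.97% of their length, with Mars on the opposite strand, itself at 23.8 and 26.5 FPKM. Atf3, a stress-induced factor of the same family, was nearly silent at 0.31 and 0.43 FPKM, from 19 and 26 reads. Its ratio of 1.39 (0.746 to 2.68) is not distinguishable from 1, and it was left out of the counts at 1 FPKM.

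Direct targets with feedback or death functions were low and their intervals held 1. Trib3, a pseudokinase that restrains ATF4 and CHOP, stood at 3.75 and 4.18 FPKM, a ratio of 1.12 (0.926 to 1.34). Ppp1r15a, which encodes GADD34 and reverses eIF2 phosphorylation, was at 6.32 and 6.72, a ratio of 1.06 (0.942 to 1.20). Chac1, which degrades glutathione, was at 1.70 and 1.78 FPKM from 79 and 81 reads, and its interval of 0.760 to 1.45 shows how little that depth resolves.

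Targets for amino acid supply and growth control were abundant, and 4 of them were slightly lower as deposited. Rescaled to the same FPKM sum, they were higher: 0.043 for Asns, 0.033 for Psat1, 0.050 for Phgdh and 0.068 for Sesn2. That rescaling put the median of all genes at 0.089, so all 4 stayed below it. Asns, which makes asparagine, was at 45.3 and 43.7 FPKM, with a ratio of 0.966 (0.921 to 1.01). The serine synthesis genes Psat1 (18.8 and 18.1 FPKM, ratio 0.960) and Phgdh (13.3 and 12.9, ratio 0.973) and Sesn2, a restraint on mTORC1 (27.5 and 27.0, ratio 0.984), had intervals that held 1 as well.

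Ddit4 differed most among the 32 genes with a mean of at least 1 FPKM. Also called REDD1, it encodes an inhibitor of mTORC1 that is known to respond to ATF4, to hypoxia and to glucocorticoids (chr10:59949669-59951834, - strand). The level was 20.6 FPKM from 1031 reads for scramble siRNA and 15.9 FPKM from 775 reads in the library labelled Mettl8 siRNA. The ratio was 0.769 (0.700 to 0.845) and the log2 difference -0.36. On the log2(FPKM + 1) scale it was the only one of the 32 measured genes at least 1.1-fold lower, beside 3 at least 1.1-fold higher (Hspa5, Calr and Atf4), where 13.7% and 14.2% of all genes passed these limits. Trib3 passed the higher limit too with a pseudocount of 0.1 in place of 1. When the libraries were rescaled to the same FPKM sum, which put the median of all genes at 0.089, 14 genes passed this limit. With the median log2 ratio of genes at a mean of at least 10 FPKM set to 0, only 2 passed it, Hspa5 and Calr. Atf4 then stood at 0.13. At 1.5-fold, 0 of the 32 measured genes were higher and 0 lower, against 1.06% and 1.05% of all genes. Of 2882 protein-coding genes with a mean of at least 10 FPKM, 2 were that much higher, Mettl8 included, and 1 lower. Ddit4 and Atf4 had the largest differences of the 10 measured branch genes on this scale, and they pointed in opposite directions.

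The chaperone group and the ATF4 and CHOP branch differed by 0.070 in their median log2 difference. The 2 ranges overlapped widely, with 9 of the 10 measured branch genes inside the range of the chaperones. The difference of medians was positive under each of 10 other settings, from 0.038 to 0.11, and at its lowest when Ddit4 was left out of the branch or Atf3 let in. The chaperone median minus that of all genes was 0.067, and the branch median minus that of all genes -0.0035. Abundant genes had a higher background. At a mean of at least 10 FPKM the median was 0.033 for protein-coding genes, 0.075 for 13 chaperone genes and -0.043 for 6 branch genes. With 1 library per group this contrast has no error of its own.

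Other genes of the same pathways were taken from 7 lists. Beside their counts, 54.1% of all genes with a mean of at least 1 FPKM were higher and 45% lower. Of protein-coding genes with a mean of at least 10 FPKM, 63.2% were higher. Genes that bring proteins into the ER, cut their signal peptides or add sugars lay to the same side as the chaperones: 19 of the 22 genes were higher, 3 were lower and the median was 0.064. Their largest differences were Spcs1, of the signal peptidase (10.3 and 12.9 FPKM, ratio 1.26, 1.11 to 1.43), and Dad1, of the oligosaccharyltransferase (4.16 and 5.33, ratio 1.28, 1.13 to 1.45). Of the other ER folding enzymes, 13 of 21 were higher, with a median of 0.0090, or 0.047 at a mean of at least 5 FPKM, where all genes had 0.025. Their largest differences were the glucosidase gene Mogs, on the lower side (5.03 and 4.19 FPKM, ratio 0.833, 0.719 to 0.964), and Pdia5, on the higher side (4.66 and 5.37). For ER-associated degradation 15 of 21 were higher with a median of 0.020. There Derl3, a channel component known as an XBP1 target, had a ratio of 0.760 (0.641 to 0.900), and Selenos stood at 10.8 and 12.1 FPKM. Other regulators of the unfolded protein response and of eIF2 had 15 of 19 measured genes higher and 3 lower, with a median of 0.069, led by Nck1 (4.32 and 4.87 FPKM) and Creb3l4 (1.00 and 1.20).

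Genes linked to ATF4 outside the 33 went both ways as well. Over all genes with a mean of at least 1 FPKM, 54.1% were higher and 45% lower. The cytosolic aminoacyl-tRNA synthetases, which charge transfer RNA with amino acids, had 17 of 20 genes higher and a median of 0.072, with Mars at a ratio of 1.11 (1.05 to 1.18) and Vars on the lower side at 0.872 (0.831 to 0.914). Amino acid synthesis and transport genes were 8 higher and 8 lower of 16 measured, with a median of 0.00044, and included Cbs, of the transsulfuration pathway (3.37 and 2.62 FPKM), and the cationic amino acid transporter gene Slc7a3 (23.9 and 27.6). Other stress genes of the ATF4 list were mostly lower, 10 of 13 measured, with a median of -0.078. Rescaled to the same FPKM sum, where the median of all genes was 0.089, theirs was -0.022. Their largest differences were the secreted glycoprotein gene Stc2 at 1.97 and 1.42 FPKM (ratio 0.721, 0.599 to 0.864) and Txnip, which encodes an inhibitor of thioredoxin, at 72.9 and 61.1 FPKM (ratio 0.838, 0.808 to 0.869). Across the 7 lists, 0 of the 132 measured genes passed 1.5-fold in either direction, against 1.06% and 1.05% of all genes. Such differences are rarer at higher levels. Of 2882 protein-coding genes with a mean of at least 10 FPKM, 2 were that much higher, Mettl8 included, and 1 lower.

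**Figure D5:**
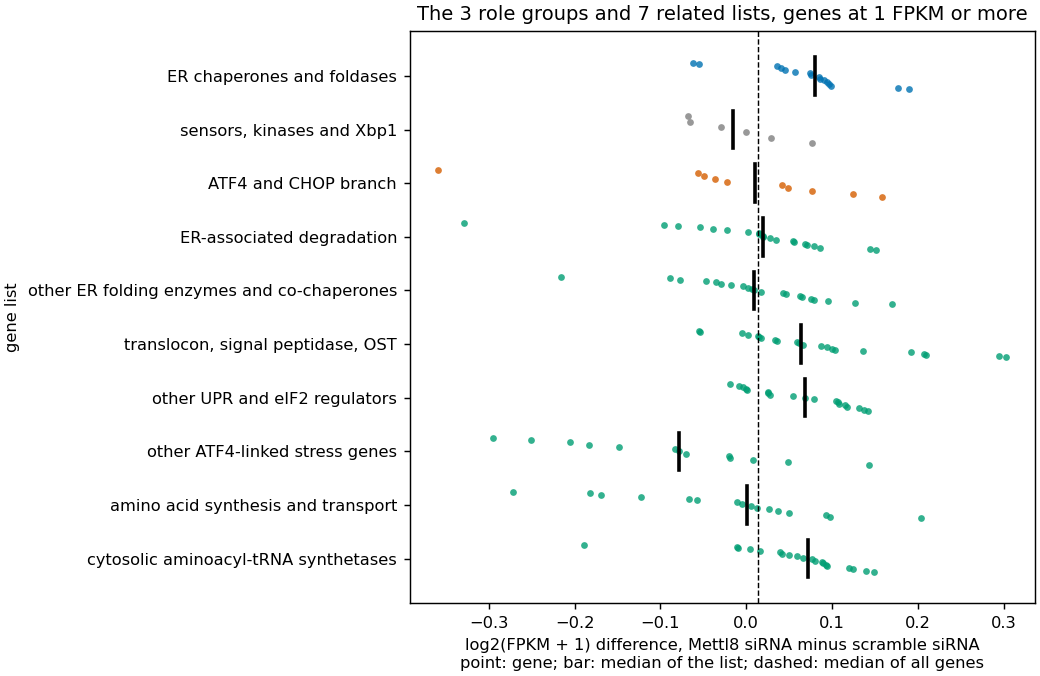
Difference on the log2(FPKM + 1) scale (x axis, library labelled Mettl8 siRNA minus library labelled scramble siRNA) of every gene with a mean of at least 1 FPKM in the 3 role groups and the 7 related lists (y axis), with a bar at the median of each list and a dashed line at the median of all genes, 0.013. The chaperone median lies at 0.080 and the ATF4 and CHOP branch at 0.0098, with Ddit4 the leftmost of all points at -0.36. Rescaling to the same FPKM sum moves these 2 medians to 0.168 and 0.085, and that of all genes to 0.089.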

How the data were processed

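RNA-seq of 2 libraries, 1 per group, was used as deposited by the authors: FPKM per gene, rounded to 2 decimals, with a gene length. Per the submitters' processing notes, STAR 2.4.0i, featureCounts 1.5.0-p1 and mm10 were used. No source used here gives the annotation, the strand setting or how multiply mapped reads were treated. The deposited lengths equal the exon unions of GENCODE M21 (GRCm38) for 30 of the 33 genes. For Atf4 the deposited length is 1724 bases against 2358, so its level depends on the gene model, and its reads and ratio may as well.

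In each library, FPKM times length took values that are whole multiples of a single step (100% of 3121 and 3563 values of genes under 400 bases with fewer than 30 reads, within rounding plus 0.005 reads), which gave denominators of 28462500 and 27817500 reads and the reads per gene. Differences were taken as log2(FPKM + 1), for 13243 genes with a mean of at least 1 FPKM, and ratios from plain FPKM, with 95% Clopper-Pearson counting intervals from the reads (Python 3.11.15, scipy 1.17.1). Steps were tested on simulated data. Levels and ranks use the deposited values.

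All 33 genes are given, with ratio and interval for the largest differences of each role group and for Hspa5, Xbp1, Atf4, Ddit3 and the kinases, and 2 genes of each related list. The members, lists and rules were chosen with earlier results of these data known. Alternatives were a pseudocount of 0.1, other filters, scalings, thresholds and intervals, and 3 settings added after the data were seen: scaling on protein-coding genes, the branch without Ddit4, and the chaperones without Hspa5 and Calr. The comparison with genes at 10 or 40 FPKM and the motif search were also added then. Promoter windows come from RefSeq (GRCm38.p6), the reference assembly and not the 129/Ola genome. For 27 of the 30 members with a window, the last 30 bases stood in a GENCODE transcript of the gene.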

Additional observations from a re-analysis of the deposited data

How the results depend on the processing

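No paired analysis was possible because each group has 1 library, and no replicate could be left out. With each library rescaled to the same FPKM sum, the median of the chaperone group went from 0.080 to 0.168 and that of the aminoacyl-tRNA synthetases from 0.072 to 0.163. That sum rests on the 57-base gene Gm23935 for 33.3% and 32.1% of its size. Under it the median of all genes shifts by 0.076, so 9 of the 32 measured genes changed sign. Of 33 genes compared, the 32 and Mettl8, 13 moved beyond their counting interval, and Mettl8 was not among the 13. None of the members compared changed sign under the other 5 settings for pseudocount, filter and scaling. These compared 24 members at a mean of at least 5 FPKM and 32 otherwise. With a pseudocount of 0.1 the difference of Mettl8 went from 5.92 to 7.03, beyond its counting interval. At a threshold of 1.1-fold in place of 1.5-fold, 3 genes were higher and 1 lower, in place of 0 and 0. The number of intervals above 1 was 9 as reported, 11 per total of reads in the table and 8 at 99%, and 1 lay below 1 each time. The median of the ATF4 and CHOP branch was 0.042 without a filter, which adds Atf3, and -0.030 at a mean of at least 5 FPKM, which removes Trib3 and Chac1.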

Other observations

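Of the annotated genes that share exon bases with the chaperone gene Hsp90b1, Gm25745 and Gm15344 carried levels above that of Hsp90b1 itself. Gm25745, annotated as a microRNA gene and sharing 133 bases with Hsp90b1 exons on the same strand, was at 200.5 and 200.6 FPKM, and Gm15344, which shares 84 bases, at 140.3 and 156.2 FPKM. On the opposite strand 1810014B01Rik shares 415 bases, 10.3% of the Hsp90b1 exon length, and was at 56.2 and 61.7 FPKM. Mir704, which shares 14 bases with Pdia4 exons, was at 94.0 and 102.2 FPKM against 52.7 and 55.6 for Pdia4. How reads were assigned where genes overlap is not given in the sources used here, so these values and those of their hosts cannot be told apart. Exons of 9 of the 33 genes overlap a gene on the opposite strand and those of 3 a gene on the same strand.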
